A study of Homo sapiens with 12 samples.

Results

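The H89 effect was examined in HepG2 cells that carry the HDAC1_S434A mutant. Libraries of these cells with H89 (Mut_treat, 3 replicates) were compared with libraries of the same genotype without it (Mut_control, 3 replicates), so 6 of the 12 RNA sequencing libraries of the series entered the comparison. The libraries were placed in their groups by the sample titles and by no measured value. HepG2 is a human hepatocyte-like line from a liver tumour. HDAC1_S434A puts alanine in place of a serine of HDAC1, and all 6 libraries carry it. The other 6 libraries are HepG2 cells with wild-type HDAC1, 3 without and 3 with H89, and they serve here only to show where the effect differs. The dose and duration of H89, the way the mutant was made and whether it is 1 clone are not stated in the labels or files used. The replicates are called biological, with no word on separate cultures, so the p-values measure the spread between these libraries.

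H89 is an inhibitor of protein kinase A (PKA), the kinase that cyclic AMP (cAMP) switches on. In the liver, cAMP rises in fasting, and PKA then phosphorylates the factor CREB, which binds cAMP response elements and raises genes of glucose production. HDAC1 is a class I histone deacetylase that works within corepressor complexes to remove acetyl groups from histones. H89 also inhibits other kinases, so a response to it is a response to the compound and not to the loss of PKA activity alone.

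The untreated S434A libraries differed among themselves far more than the treated ones, and every result below rests on them. Total counts were 18533717, 17562754 and 18328153 without H89 and 21028581, 20064967 and 22648485 with it. The biological coefficient of variation was 0.351 in the untreated S434A group and 0.0556 in the treated one. Albumin mRNA took 0.293%, 1.82% and 2.43% of the counts in untreated replicates 1, 2 and 3, and 1.94% to 2.16% in the treated libraries. The 13 mitochondrially encoded mRNAs took 7.02%, 4.09% and 3.16% against 5.57% to 5.94%, and the cytosolic ribosomal protein mRNAs 9.51%, 9.55% and 11.5% against 7.93% to 7.94%. The summed level of the 7 hepatocyte-like markers was 23680, 41770 and 47450 CPM (counts scaled to library size with TMM factors) without H89 and 38300 to 39670 CPM with it. Of the 9 fibroblast markers, COL1A2, DCN, FAP, LUM and THY1 had no count in any of the 6 libraries, and the list summed to 24.4 to 39.7 CPM without and 17.8 to 20.5 CPM with H89. Of the 11 blood and endothelial markers matched, CD3E, HBB, KDR and PTPRC had no count, and the sum of 2379 to 2900 CPM without and 2021 to 2079 CPM with H89 came nearly whole from LYZ (2332 to 2869 CPM without, 2002 to 2058 CPM with). The part of these differences in the results was not tested.

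HDAC1 itself (ENSG00000116478.12_7, hg19 chromosome 1, 32757684 to 32799236; a gene count does not show a single base change) was measured at 713, 752 and 659 CPM without H89 and 622, 680.3 and 552 CPM with it. Its log2 change was -0.20 ± 0.11 SE, adjusted p = 0.192, and the libraries of the groups overlapped.

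Of 14435 genes tested, 594 were higher and 261 lower with H89 at a fold over 2 and an adjusted p under 0.05 (edgeR's quasi-likelihood test with Benjamini-Hochberg adjustment), which is 4.11% and 1.81% of the genes. At any fold, 1160 genes rose (8.04%) and 1522 fell (10.5%); in the lists below, "rose" and "fell" mean this. The 3 treated libraries lay above all 3 untreated ones for 33.1% of genes and below them for 23.2%. With RLE size factors in place of TMM factors the called genes numbered 377 higher and 376 lower, so the excess of rises depended on the scaling. Counts of calls also depended on single libraries: 1254 higher and 284 lower without untreated replicate 1, 19 and 176 without untreated replicate 2, and 2182 and 378 without untreated replicate 3. Without any 1 of the treated libraries edgeR called 0 genes in either direction (smallest adjusted p 0.0585 to 0.0636), while 4141 to 4510 genes had an unadjusted p under 0.05; no other tool was run on those 5 libraries. DESeq2 on all 6 libraries called 1609 higher and 250 lower, and limma-voom with a weight per group 2045 and 215.

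Gene properties moved with the effect. The log2 change fell with the GC content of the transcript and rose with gene length (Spearman's rho -0.66 and 0.37 across genes, a description, since genes are not independent replicates). In 10 bins of equal gene number by GC content, the median log2 change was 1.17 in the lowest bin and -0.31 in the highest. Against untreated replicates 1, 2 and 3 taken singly, the median in the lowest bin was 1.78, 0.82 and 0.49. The 594 genes called higher had a median GC content of 41.6% and a median length of 7087 bases, the 261 called lower 55.7% and 2628 bases, and all genes tested 49.0% and 4734 bases. A second fit therefore took out of each library a smooth curve of level on GC content and gene length (called trend removal below), and it called 264 genes higher (1.83%) and 440 lower (3.05%), with 1483 (10.3%) and 2012 (13.9%) at any fold. In both fits 143 genes were called higher and 137 lower. Of those higher 83 were protein-coding, 30 long noncoding and 16 pseudogenes, of those lower 111, 22 and 3, and of all genes tested 12123, 1474 and 585. Of the genes chosen for naming, 119 passed the test in both fits, and with trends removed the log2 change of 46 of them was over 1.5 times smaller and that of 8 over 1.5 times larger; those described below that no longer passed are given with that value. A core of 85 genes, 23 higher and 62 lower, was also called with trends removed when each of the 6 libraries was left out in turn.

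**Figure D1:**
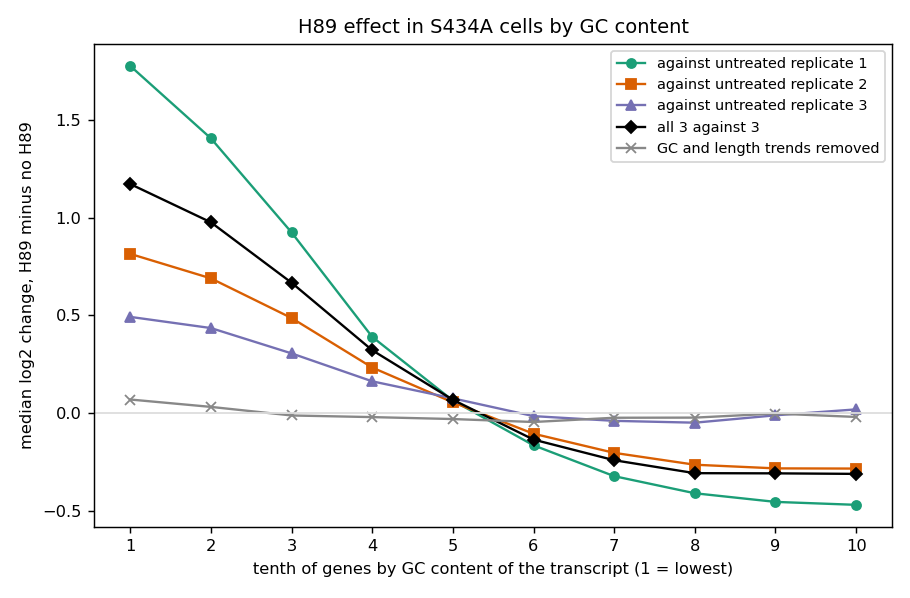
Median log2 change with H89 (y axis) in 10 bins of genes by GC content of the transcript (x axis, 1 is the lowest) for S434A cells. The coloured lines compare the treated libraries with each untreated replicate on a log2(CPM + 1) scale, and they fall from 1.78, 0.82 and 0.49 in the lowest bin; the black line (all 3 against 3) falls from 1.17 to -0.31, and the grey line with trends removed stays near 0.

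The 12 largest falls included genes of secreted liver proteins, of liver metabolism and of the cytoskeleton. They were taken among protein-coding genes called in both fits, at 5 CPM or more and without overlap between treated and untreated libraries. The ranking was by the smaller of the 2 log2 changes. PLG, the precursor of the clot-dissolving protease plasmin (ENSG00000122194.19_4, hg19 chromosome 6, 161123270 to 161175129), was at 32.8, 30.7 and 23.3 CPM without H89 and 6.53, 4.6 and 5.36 CPM with it. The log2 change was -2.40 ± 0.21 SE, adjusted p = 0.011 (n = 3 libraries per group throughout). HP, haptoglobin, which binds free haemoglobin, stood at 771, 796 and 1100 CPM without H89 and 213, 229.5 and 217 CPM with it (log2 change -2.02 ± 0.16 SE, adjusted p = 0.011). Its near-copy HPR shares sequence with it, so the split of reads between them is uncertain. HPX, hemopexin, which binds haem, was at 23, 18.3 and 15.6 CPM without H89 and 4.03, 4.41 and 5.08 CPM with it (log2 change -2.07 ± 0.21 SE, adjusted p = 0.012). That the groups do not overlap was part of the selection. For each of these genes all 3 treated libraries were several times below all 3 untreated ones, and the untreated libraries were spread less than the gap.

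HAL, the first enzyme of histidine breakdown, was at 16.1, 18.2 and 16.4 CPM without H89 and 4.17, 3.3 and 2.7 CPM with it (log2 change -2.32 ± 0.20 SE, adjusted p = 0.011). GNMT, which consumes S-adenosylmethionine, was at 21.4, 21.8 and 21.9 CPM without H89 and 5.88, 5.94 and 5.44 CPM with it (log2 change -1.91 ± 0.13 SE, adjusted p = 0.011). KNG1, kininogen, was measured at 4.36, 6.65 and 10.5 CPM without H89 and 2.32, 2.41 and 1.98 CPM with it (log2 change -1.68 ± 0.34 SE, adjusted p = 0.028); untreated replicate 1 was the lowest of its group and still above every treated library. GSTA2, a glutathione transferase with close relatives that may share its reads, went from a mean of 7.31 to 2.6 CPM (log2 change -1.49 ± 0.23 SE, adjusted p = 0.018).

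IGFBP3, a secreted carrier of insulin-like growth factors, was at 148, 163 and 136 CPM without H89 and 45.1, 48.1 and 29.1 CPM with it (log2 change -1.87 ± 0.21 SE, adjusted p = 0.012). TUBA1A, an alpha-tubulin of the microtubules, was at 22.2, 17.2 and 13.7 CPM without H89 and 3.46, 2.88 and 3.43 CPM with it (log2 change -2.44 ± 0.23 SE, adjusted p = 0.011). TIE1, a receptor tyrosine kinase best known from endothelium, was at 7.1, 6.82 and 4.73 CPM without H89 and 1.27, 1.81 and 2.18 CPM with it (log2 change -1.82 ± 0.27 SE, adjusted p = 0.016), and SLC1A7, an amino acid transporter, at 5.81, 5.37 and 3.9 CPM without H89 and 1.67, 1.58 and 1.29 CPM with it (log2 change -1.73 ± 0.22 SE, adjusted p = 0.014). The remaining gene of the 12 largest falls, G6PC1, is given with the cAMP targets. Every one of these 12 was called lower with trends removed also when any 1 of the 6 libraries was left out.

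The 12 largest rises by the same rule differed in how far their untreated libraries lay apart. CYP24A1, the vitamin D hydroxylase (ENSG00000019186.10_6, hg19 chromosome 20, 52769985 to 52790525), was at 35, 35.5 and 32.4 CPM without H89 and 95.5, 108 and 81.2 CPM with it (log2 change 1.47 ± 0.13 SE, adjusted p = 0.011). CYP1A1, a target of the aryl hydrocarbon receptor (ENSG00000140465.14_7, hg19 chromosome 15, 75011883 to 75017877), was at 23.1, 21.8 and 16.7 CPM without H89 and 52.7, 68.1 and 56.8 CPM with it (log2 change 1.53 ± 0.17 SE, adjusted p = 0.012). CEMIP, a protein of hyaluronan breakdown (ENSG00000103888.17_5, hg19 chromosome 15, 81071684 to 81244117), was at 48.4, 50.2 and 30.9 CPM without H89 and 108, 128 and 114 CPM with it (log2 change 1.44 ± 0.20 SE, adjusted p = 0.015). ZNF114, a zinc finger protein, was at 2.26, 2.49 and 2.91 CPM without H89 and 8.42, 13.1 and 14.2 CPM with it (log2 change 2.22 ± 0.25 SE, adjusted p = 0.013). These 4 rises, which like the others were selected for no overlap, had no untreated library near a treated one.

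ZNF608, another zinc finger protein, was at 1.29, 1.77 and 2.29 CPM without H89 and 5.79, 6.27 and 4.76 CPM with it (log2 change 1.65 ± 0.25 SE, adjusted p = 0.016), and TNFRSF19, a receptor of the tumour necrosis factor family, at 17.4, 28.8 and 38.7 CPM without H89 and 96.7, 104 and 101 CPM with it (log2 change 1.83 ± 0.28 SE, adjusted p = 0.018). DGKK, a diacylglycerol kinase, was at 5.38, 10.1 and 13.1 CPM without H89 and 34.2, 34.8 and 36.7 CPM with it (log2 change 1.89 ± 0.32 SE, adjusted p = 0.019). ZFHX3, a large homeodomain and zinc finger factor, was at 7.32, 13.3 and 19.2 CPM without H89 and 39.5, 40.4 and 44.2 CPM with it (log2 change 1.64 ± 0.33 SE, adjusted p = 0.030). In the last 3 of these the untreated replicates spread widely, with replicate 1 lowest and replicate 3 highest.

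DMXL2, a scaffold protein tied to the proton pump of vesicles, was at 0.161, 1.72 and 2.34 CPM without H89 and 8.64, 11.4 and 9.39 CPM with it (log2 change 2.80 ± 0.69 SE, adjusted p = 0.041). DOP1A, a membrane traffic protein, was at 0.215, 1.66 and 2.29 CPM without H89 and 7.54, 7.75 and 8.63 CPM with it (log2 change 2.52 ± 0.62 SE, adjusted p = 0.042). ZFP1, a zinc finger protein, and USF3, a helix-loop-helix protein, changed by 2.29 and 2.46 on the log2 scale, with adjusted p of 0.047 and 0.042. With GC and length trends removed the log2 changes of DMXL2, DOP1A, ZFP1 and USF3 were 1.59, 1.47, 1.41 and 1.30, against 1.29, 1.78, 1.56 and 2.28 for the first 4 named. Of the 12 rises 6 stayed called with trends removed whichever library was left out, and all 24 rises and falls kept their sign under each of the 22 other settings. All 24 had been selected as called in both fits, so the kept signs are no separate support.

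**Figure D2:**
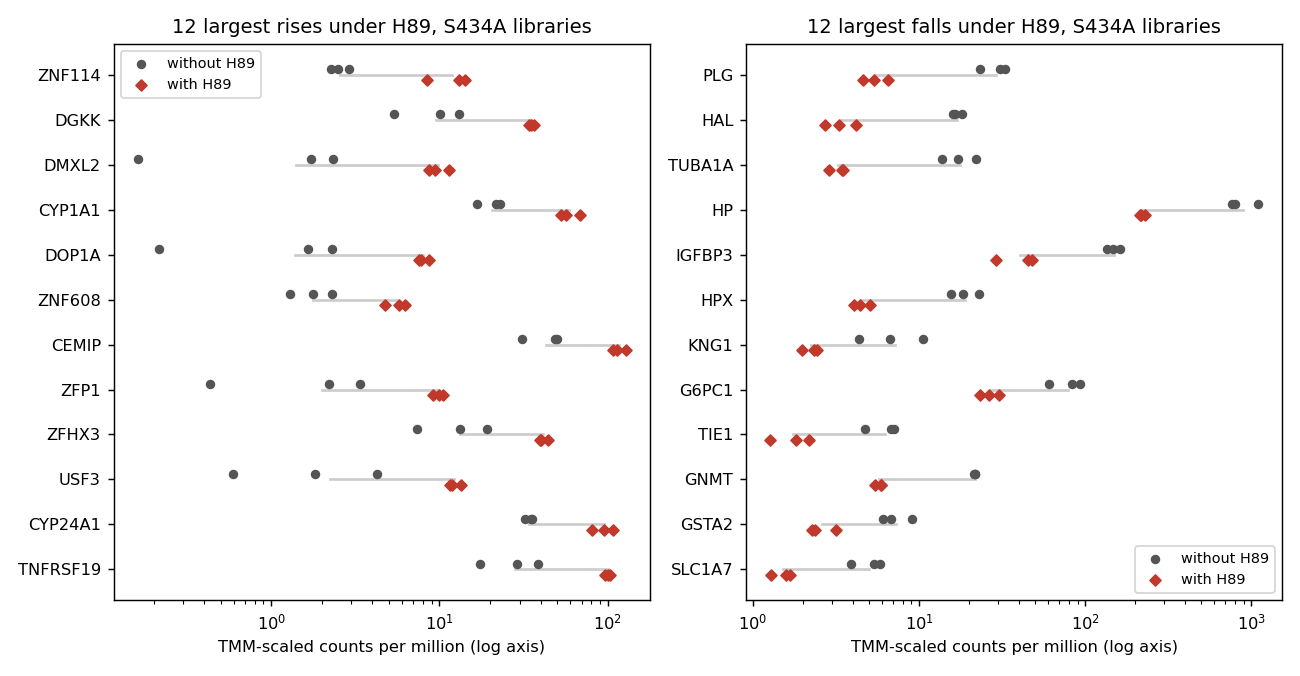
TMM-scaled CPM (x axis, log scale) of the 12 largest rises and 12 largest falls in the 3 S434A libraries without H89 (grey circles) and the 3 with it (red diamonds); grey lines join the group means. The groups do not overlap for any of the 24 genes, which was part of their selection, and untreated replicate 1 of DMXL2 at 0.161 CPM shows how far single untreated libraries can lie from the others.

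Among cAMP, PKA and CREB-responsive genes, 5 of 17 tested fell and 2 rose, beside 10.5% and 8.04% of all genes. Their median log2 change was -0.42 against 0.013 over all genes. The falls were led by the 2 enzymes that set glucose output from the liver. PCK1, which makes phosphoenolpyruvate for glucose synthesis (ENSG00000124253.11_5, hg19 chromosome 20, 56136136 to 56143177), was at 122, 136 and 126 CPM without H89 and 56.1, 57.4 and 42.5 CPM with it (log2 change -1.30 ± 0.14 SE, adjusted p = 0.012). G6PC1, glucose-6-phosphatase, which releases free glucose (ENSG00000131482.10_5, hg19 chromosome 17, 41052814 to 41066455), was at 93.5, 83.8 and 60.4 CPM without H89 and 30.4, 23.4 and 26.2 CPM with it (log2 change -1.57 ± 0.19 SE, adjusted p = 0.013). DUSP1, a phosphatase of MAP kinases, was at 57.5, 52.6 and 56.8 CPM without H89 and 26.5, 37.5 and 24.6 CPM with it (log2 change -0.91 ± 0.18 SE, adjusted p = 0.025). PDE4D, a phosphodiesterase that breaks down cAMP, rose, with 1.51, 3.27 and 4.57 CPM without H89 and 9.78, 10.9 and 12.9 CPM with it (log2 change 1.84 ± 0.39 SE, adjusted p = 0.030). Beside the members named by the rule, CREM rose (log2 change 0.66, adjusted p = 0.047). PPARGC1A did not pass (means 15.7 CPM without and 46.4 CPM with H89, log2 change 1.56, adjusted p = 0.072). Its treated libraries lay wholly above the untreated ones, as for 33.1% of all genes. With trends removed, PCK1 and G6PC1 had log2 changes of -1.37 and -1.63, DUSP1 at -0.54 (adjusted p = 0.057) and PDE4D at 0.52, and 4 members rose and 4 fell. CREM and PPARGC1A were then at -0.38 and 0.40 (adjusted p = 0.248 and 0.071).

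Of the wider gluconeogenesis and glycogen list 3 of 9 fell and 1 rose, beside 10.5% and 8.04% of all genes. Beside G6PC1, PCK2, the mitochondrial form of the PCK1 enzyme, fell by 1.23, with 1145, 922 and 724 CPM without H89 and 441, 365 and 380.1 CPM with it, and SLC37A4, the transporter that carries glucose-6-phosphate to G6PC1, had a log2 change of -0.71 ± 0.15 SE, adjusted p = 0.033.

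Genes of the PKA machinery moved in both directions, and their counts stand beside 8.04% of all genes that rose and 10.5% that fell. Of 7 PKA subunits and inhibitors 2 rose: PRKACB, a catalytic subunit, with 0.915, 1.33 and 1.71 CPM without H89 and 3.64, 4.04 and 3.91 CPM with it (log2 change 1.54 ± 0.24 SE, adjusted p = 0.018), and PRKAR2A, a regulatory subunit, with 52.3, 52.5 and 51.6 CPM without H89 and 64.8, 68.5 and 66.3 CPM with it (log2 change 0.35 ± 0.08 SE, adjusted p = 0.038). With trends removed their log2 changes were 0.36 and -0.045, with adjusted p of 0.253 and 0.768. Of 12 A-kinase anchoring proteins, which hold PKA at its sites in the cell, AKAP6 (log2 change 2.30 ± 0.38 SE, adjusted p = 0.019) and AKAP13 (log2 change 0.81 ± 0.18 SE, adjusted p = 0.033) rose and EZR, ezrin, fell (log2 change -0.53 ± 0.10 SE, adjusted p = 0.022). Of 20 adenylyl cyclases, phosphodiesterases and CREB factors 6 rose and 2 fell. The phosphodiesterases PDE8A and PDE7A rose by 1.15 and 1.20, the acetyltransferase EP300, a partner of CREB, rose by 0.59, and CREB3, a CREB-like factor of the endoplasmic reticulum, fell by 0.66 on the log2 scale. With trends removed AKAP6, AKAP13, PDE8A and CREB3 no longer passed, with log2 changes of 0.996, 0.42, 0.24 and -0.26 (adjusted p = 0.054, 0.061, 0.186 and 0.083).

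The full cAMP response element, the letters TGACGTCA, which read the same on both strands, was sought in RefSeq promoter windows (GRCh38.p14, 250 bases before to 50 after each start; 10537 of the tested genes matched). It stood in 3.82% of these genes' windows, in 3.28% of those of genes called higher (14 genes) and in 2.42% of those called lower (4 genes). The shorter site TGACG or CGTCA, which the full element contains on either strand, stood in 39.9% of all, 39.8% of the higher and 21.2% of the lower. Of genes called in both fits, 2 higher (2.60%) and 0 lower held the full element. The 14 called higher, these 2 among them, are not shown. The 4 called lower are shown, chosen after their values were seen, to let the element be read in its promoter. Called genes with the element before the start and at least 10 CPM were also ranked by the smaller log2 change of the 2 fits. MYL6, CLDN6, IL32 and SNRK then came first, and SNRK rose (1.36, and 0.77 with trends removed). The element is in capitals and each stretch is read 5′ to 3′ on the gene's strand.
MYL6, chr12:56158272-56158358, plus strand: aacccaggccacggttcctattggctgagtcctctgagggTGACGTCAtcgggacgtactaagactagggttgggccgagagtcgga
CLDN6, chr16:3018184-3018270, minus strand: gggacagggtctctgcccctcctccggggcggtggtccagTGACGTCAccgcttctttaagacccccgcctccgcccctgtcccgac
IL32, chr16:3065242-3065329, plus strand: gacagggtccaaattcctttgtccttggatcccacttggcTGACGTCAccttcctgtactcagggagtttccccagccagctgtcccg
TUBB2A, chr6:3157557-3157644, minus strand: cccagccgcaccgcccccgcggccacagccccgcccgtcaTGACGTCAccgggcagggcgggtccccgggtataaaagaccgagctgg
MYL6, a light chain of myosin, fell by 1.06 on the log2 scale, CLDN6, a tight junction protein, by 1.26, IL32, a cytokine, by 1.12 and TUBB2A, a beta-tubulin, by 1.06. A match is a string of letters and does not show that CREB binds there.

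Genes of proteins that the liver exports held many of the falls. In the plasma carrier and transport list 11 of 20 genes fell, with a median log2 change of -0.71. Of coagulation and fibrinolysis genes 11 of 20 fell (median -0.58), of acute phase and complement genes 11 of 21 (median -0.84) and of apolipoproteins 7 of 10 (median -0.72). With trends removed 13, 14, 13 and 5 fell in the same order, with medians of -0.71, -0.64, -0.64 and -0.35. By edgeR 0 members of these 4 lists rose; at an unadjusted p under 0.05, 0, 1, 0 and 0 were higher in the same order, DESeq2 called 0, 1, 0 and 0, and limma-voom 0, 1, 0 and 1. These shares stand beside the 10.5% of all genes that fell. In bulk RNA, fewer cells of a kind and less RNA per cell cannot be told apart.

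ITIH1 and ITIH3, heavy chains of the inter-alpha-trypsin inhibitors that bind hyaluronan, both fell. ITIH1 was at 48.9, 43.7 and 38.6 CPM without H89 and 17.5, 15.9 and 17.5 CPM with it (log2 change -1.36 ± 0.13 SE, adjusted p = 0.011). ITIH3 was at 1560, 1361 and 1144 CPM without H89 and 551, 490.1 and 467 CPM with it (log2 change -1.43 ± 0.14 SE, adjusted p = 0.011). APOA1, the main protein of high-density lipoprotein, was at 4761, 4381 and 4452 CPM without H89 and 2063, 1985 and 2045 CPM with it (log2 change -1.16 ± 0.08 SE, adjusted p = 0.011). The lipoprotein genes APOC3, APOA5 and APOC1 fell by 1.17, 1.13 and 0.94, in log2 units. Each of these treated groups lay wholly below its untreated group, as was so for 23.2% of all genes, and these members were named for their small p-values. APOB, another apolipoprotein, did not pass, and its treated libraries lay wholly above the untreated ones (415, 2983 and 4663 CPM without H89, 6947, 6517 and 6287 CPM with it).

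Among clotting genes, F10, coagulation factor X, was at 258, 232 and 204 CPM without H89 and 104, 95.4 and 95.2 CPM with it (log2 change -1.24 ± 0.11 SE, adjusted p = 0.011). FGA, a chain of fibrinogen, was at 1855, 1897 and 1766 CPM without H89 and 1000, 833 and 849.6 CPM with it (log2 change -1.04 ± 0.10 SE, adjusted p = 0.011), and SERPINC1, antithrombin, fell by 0.98. In the complement system, the proteases C1S and C1R, which start the classical pathway, both fell. C1S was at 119.6, 114 and 101 CPM without H89 and 46.4, 46 and 46.6 CPM with it (log2 change -1.27 ± 0.10 SE, adjusted p = 0.011). C1R was at 36.3, 31.9 and 26.9 CPM without H89 and 12.3, 12.3 and 11.7 CPM with it (log2 change -1.39 ± 0.15 SE, adjusted p = 0.012). ORM1 and ORM2, acid glycoproteins whose near-identical sequences make the split of reads uncertain, fell by 0.99 and 1.09, in log2 units.

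In amino acid breakdown and the urea cycle 14 of 22 genes fell, with a median log2 change of -0.61 (-0.49 with trends removed, 18 falls). Over all genes 10.5% fell, and 13.9% with trends removed. Beside HAL and GNMT, AGXT, which turns glyoxylate into glycine, was at 260.1, 208 and 179.5 CPM without H89 and 85.7, 75.6 and 81.9 CPM with it (log2 change -1.41 ± 0.15 SE, adjusted p = 0.012), and ASS1, a urea cycle enzyme, at 265, 244 and 244 CPM without H89 and 136, 135 and 134 CPM with it (log2 change -0.89 ± 0.08 SE, adjusted p = 0.011). Of bile acid and xenobiotic genes 3 of 17 fell and 2 rose, beside 10.5% and 8.04% of all genes. Beside CYP1A1, the export pump ABCC2 rose, with 209, 302 and 346 CPM without H89 and 480.4, 507 and 491 CPM with it (log2 change 0.79 ± 0.18 SE, adjusted p = 0.037), with untreated replicate 1 lowest, and CES1, a carboxylesterase, and SLC51A, a bile acid transporter subunit, fell by 0.79 and 0.77.

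Of 23 transcription factors of hepatocytes tested, 4 rose and 1 fell, beside 8.04% and 10.5% of all genes, and the median was 0.071. PPARA, the fatty acid sensor, was at 35.8, 47.2 and 60.3 CPM without H89 and 88.1, 90.6 and 86.5 CPM with it (log2 change 0.89 ± 0.19 SE, adjusted p = 0.031). TBX3 (log2 change 0.51 ± 0.13 SE, adjusted p = 0.043) and NR5A2, a bile acid regulator (log2 change 1.49 ± 0.35 SE, adjusted p = 0.038), also rose. NR1H3, a sterol sensor, fell by 0.49 on the log2 scale, with 46.5, 47.1 and 47.2 CPM without H89 and 33.2, 33.3 and 33.4 CPM with it. With trends removed 8 of the list rose; PPARA and TBX3 had log2 changes of 0.52 and 0.65, and NR5A2 and NR1H3 at 0.37 and -0.26 with adjusted p of 0.193 and 0.121.

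Among lipid synthesis genes more members rose than fell, beside 8.04% of all genes that rose and 10.5% that fell. Of 18 fatty acid and triglyceride synthesis genes 4 rose and 1 fell. SCD, which makes monounsaturated fatty acids, was at 1043, 1069 and 886 CPM without H89 and 1790, 1809 and 1879 CPM with it (log2 change 0.87 ± 0.10 SE, adjusted p = 0.012). ACACA, which makes malonyl-CoA, rose by 0.51 and ELOVL5, an elongase, by 0.75, while AGPAT2, an enzyme of triglyceride assembly, fell by 0.68, in log2 units. Of 22 cholesterol genes 3 rose and 1 fell: LSS, lanosterol synthase, was at 74.9, 66.9 and 48.6 CPM without H89 and 129.8, 138 and 148 CPM with it (log2 change 1.13 ± 0.17 SE, adjusted p = 0.017), the later enzyme CYP51A1 rose by 0.86, SQLE, the squalene oxidase, by 0.36, and PMVK of the mevalonate branch fell by 0.65. With trends removed 9 of the 18 and 7 of the 22 rose, and ELOVL5, CYP51A1, AGPAT2 and PMVK no longer passed, with log2 changes of 0.0033, 0.11, -0.32 and -0.27 (adjusted p = 0.986, 0.761, 0.065 and 0.081).

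Of 13 fatty acid oxidation and ketogenesis genes 4 fell, beside 10.5% of all genes, and with trends removed 8 fell, beside 13.9%. ACADVL, the dehydrogenase of very long chains, was at 477, 436 and 422 CPM without H89 and 242, 237 and 228 CPM with it (log2 change -0.92 ± 0.08 SE, adjusted p = 0.011). BDH1, a ketone body enzyme, HADHA, of the trifunctional protein, and ANGPTL4, a secreted lipase inhibitor, fell by 0.66, 0.47 and 0.84, in log2 units. Of 21 glycolysis genes 7 fell (median -0.36), among them PGK1 (log2 change -0.69), TPI1 (-0.60), ENO1 (-0.70) and PFKL (-0.60). With trends removed 10 of the 21 fell and 3 rose (median -0.25).

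**Figure D3:**
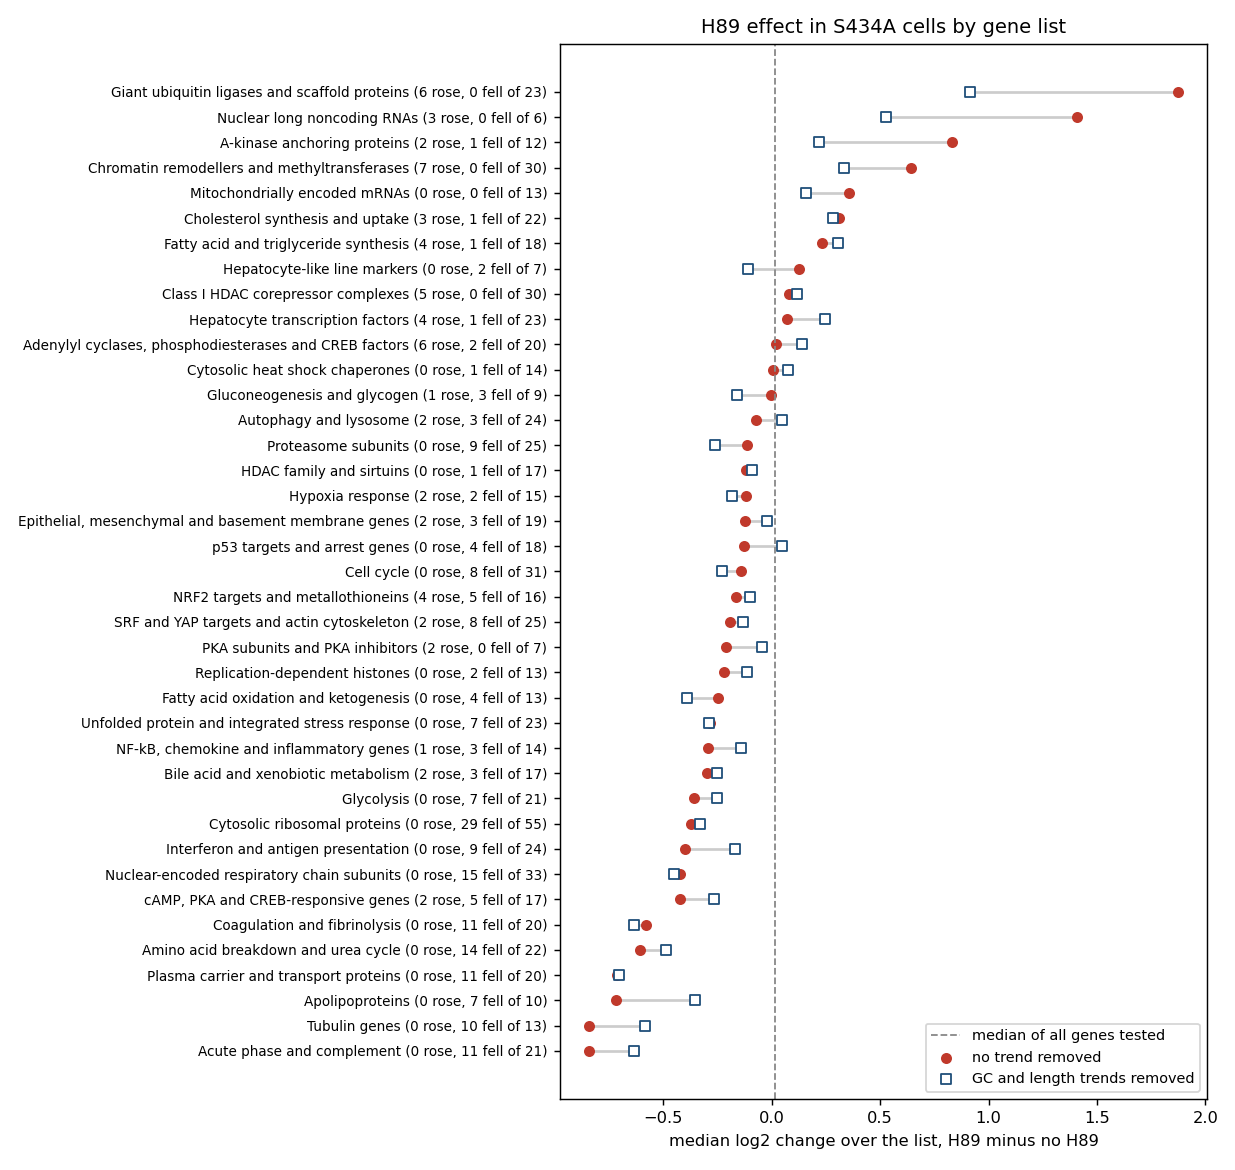
Median log2 change with H89 in S434A cells (x axis) over the tested genes of each list (y axis, with the number that rose and fell), without trend removal (red circles) and with GC and length trends removed (open squares). Export protein, amino acid and tubulin lists lie left of the median of all genes (0.013) in both fits, and lists of very long genes move from 1.87 to 0.91.

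Genes of protein synthesis and respiration made many small falls, beside 10.5% of all genes that fell (13.9% with trends removed). Of 55 cytosolic ribosomal protein genes 29 fell, with a median log2 change of -0.37. RPL8 was at 2162, 1987 and 2196 CPM without H89 and 1208, 1187 and 1180 CPM with it (log2 change -0.83 ± 0.08 SE, adjusted p = 0.011), and RPS9 and RPS20 fell by 0.87 and 0.59; these genes have many pseudogene copies, so their counts are uncertain. Of 33 nuclear-encoded respiratory chain subunits 15 fell (median -0.42). ATP5F1B, the catalytic subunit of the ATP synthase, was at 1482, 1375 and 1385 CPM without H89 and 898, 908 and 905 CPM with it (log2 change -0.65 ± 0.07 SE, adjusted p = 0.013), and UQCRC1 and CYC1 of complex III and NDUFV1 of complex I fell by 0.68, 0.61 and 0.66. Of 25 proteasome subunits 9 fell (median -0.11), with PSMB5 at -0.77, PSMC3 at -0.59, PSMB3 at -0.41 and PSMB1 at -0.44, in log2 units. With trends removed 25 of 55, 18 of 33 and 9 of 25 fell, while RPS9, CYC1, PSMC3 and PSMB3 no longer passed, with log2 changes of -0.63, -0.26, -0.22 and -0.014 (adjusted p = 0.052, 0.066, 0.053 and 0.871).

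Of the 13 mRNAs encoded by mitochondrial DNA, 0 rose and 0 fell by edgeR, with 0 at an unadjusted p under 0.05 in either direction and 0 by DESeq2 or limma-voom. MT-CO1, a subunit of cytochrome c oxidase, was at 26400, 14580 and 10710 CPM without H89 and 17010, 16150 and 16550 CPM with it. MT-CO2, another subunit, was at 8987, 6678 and 5214 CPM without H89 and 7000, 6882 and 6712 CPM with it. Untreated replicate 1 was above all treated libraries for both genes and untreated replicate 3 below them. Without untreated replicate 1, 11 of the 13 rose, with a median log2 change of 0.92, where 25.3% of all genes rose and 14.4% fell.

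Cell division genes fell in part, 8 of 31 with a median of -0.14, beside 10.5% of all genes that fell. RRM2, which makes DNA precursors, was at 191, 187 and 177 CPM without H89 and 119, 109 and 109 CPM with it (log2 change -0.72 ± 0.08 SE, adjusted p = 0.013). BIRC5, survivin, CCNE1, cyclin E, and E2F1, which drives S phase genes, fell by 0.84, 0.57 and 0.80, in log2 units. Of 13 replication-dependent histone genes tested 2 fell, H2AC20 by 1.31 and H1-2 by 0.77 on the log2 scale; their mRNAs lack poly(A) tails, and the labels used here do not name the library type. Of 18 p53 targets and arrest genes 4 fell, FDXR (log2 change -0.54), BTG2 (-0.47), PLK3 (-0.70) and PHLDA3 (-0.44), and with trends removed 2 rose and 1 fell. H1-2, FDXR, BTG2 and PHLDA3 then no longer passed, with log2 changes of -0.39, -0.23, -0.27 and -0.099 (adjusted p = 0.072, 0.172, 0.056 and 0.406).

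Among remodellers and corepressor subunits more genes rose than fell. Of 30 chromatin remodellers and methyltransferases 7 rose, beside 8.04% of all genes, with a median of 0.64 (0.33 with trends removed, 9 rises and 3 falls). CHD8, a remodeller, was at 70.1, 75 and 75.6 CPM without H89 and 119, 116 and 122 CPM with it (log2 change 0.69 ± 0.08 SE, adjusted p = 0.013), and INO80, which moves H2A.Z nucleosomes, at 17.5, 18.3 and 18.2 CPM without H89 and 27.5, 27.4 and 29.1 CPM with it (log2 change 0.64 ± 0.11 SE, adjusted p = 0.020). ARID1B of the BAF complex rose by 0.63 and the methyltransferase NSD3 by 1.33, in log2 units, and with trends removed neither passed, at 0.38 and 0.15 (adjusted p = 0.092 and 0.249). Of 30 subunits of class I HDAC corepressor complexes, the partners of HDAC1, 5 rose, among them RCOR3 (log2 change 0.98), MTA3 (0.37), RCOR1 (0.65) and SUDS3 (0.50), and with trends removed 7 rose and 3 fell. Of these 4, MTA3 and RCOR1 passed with trends removed (0.37 and 0.28), while SUDS3 was at 0.059 (adjusted p = 0.597) and RCOR3 turned to a log2 change of -0.49 (adjusted p = 0.335). Of 17 HDAC family members and sirtuins 1 fell, HDAC11, with 74.7, 70.1 and 68.4 CPM without H89 and 57.5, 54 and 53.5 CPM with it (log2 change -0.37 ± 0.09 SE, adjusted p = 0.040; -0.10 with trends removed, adjusted p = 0.561).

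Of the lists examined, the giant ubiquitin ligases and scaffold proteins had the highest median log2 change, 1.87 over 23 genes (0.91 with trends removed). The lists were chosen with earlier results of these data known, so this rank is not a test. These are long genes, and the log2 change rose with gene length across all genes (rho 0.37). Of the 23 genes 6 rose, beside 8.04% of all genes. In 19 all treated libraries lay above all untreated ones, as they did for 33.1% of all genes. VPS13D, a lipid transfer protein, was at 9.69, 14.6 and 18.9 CPM without H89 and 31.5, 29.4 and 29.6 CPM with it (log2 change 1.07 ± 0.24 SE, adjusted p = 0.036), DMXL1, the relative of DMXL2, at 1.02, 2.83 and 4.36 CPM without H89 and 9.43, 11.1 and 12.3 CPM with it (log2 change 1.99 ± 0.48 SE, adjusted p = 0.040), and BLTP3A, another lipid transfer protein, at 37, 49.2 and 51.7 CPM without H89 and 77.7, 83.4 and 85.4 CPM with it (log2 change 0.84 ± 0.15 SE, adjusted p = 0.021). All 3 had their lowest value in untreated replicate 1. Of 6 nuclear long noncoding RNAs 3 rose (median 1.41; 0.53 with trends removed). MALAT1, a nuclear speckle RNA (ENSG00000251562.8_6, hg19 chromosome 11, 65265159 to 65273987), was at 6.67, 31.2 and 44.1 CPM without H89 and 140.2, 142 and 137 CPM with it (log2 change 2.35 ± 0.62 SE, adjusted p = 0.047). NEAT1, the core of paraspeckles, was at 22.6, 31.2 and 35.7 CPM without H89 and 89, 85.8 and 85.2 CPM with it (log2 change 1.54 ± 0.18 SE, adjusted p = 0.013), and SNHG14 rose by 0.97 (0.031 with trends removed, adjusted p = 0.819).

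Most tubulin genes fell, 10 of 13 in each fit, with a median log2 change of -0.84. Over all genes 10.5% fell and 8.04% rose, or 13.9% and 10.3% with trends removed. Beside TUBA1A, TUBA1B was at 416, 367 and 295 CPM without H89 and 176, 168 and 175 CPM with it (log2 change -1.06 ± 0.14 SE, adjusted p = 0.015), TUBB4B at 686, 589.5 and 497 CPM without H89 and 331, 296 and 314 CPM with it (log2 change -0.91 ± 0.13 SE, adjusted p = 0.016) and TUBB2A at 64.7, 59.7 and 51.7 CPM without H89 and 30.7, 26.8 and 26.8 CPM with it (log2 change -1.06 ± 0.13 SE, adjusted p = 0.013). Tubulin genes are alike enough that reads may be split between them, so single members are uncertain. Of 25 targets of SRF and YAP and actin cytoskeleton genes 8 fell and 2 rose. The YAP targets AJUBA and CCN1 fell by 0.77 and 1.05 on the log2 scale, the matrix protein THBS1 by 0.61, and CNN1, calponin, by 2.28 at low counts of at most 1.08 CPM. Of 19 epithelial, mesenchymal and basement membrane genes the keratins KRT19 (185, 167 and 151 CPM without H89 and 86.7, 91.4 and 96.3 CPM with it) and KRT18 were among 3 falls (log2 changes -0.87 and -0.72), and LAMB1, a laminin chain (0.69), and CDH2, N-cadherin (0.56), were the 2 rises. With trends removed LAMB1 was at 0.62 and CDH2 at -0.032 on the log2 scale (adjusted p = 0.862).

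Stress and immune genes fell in part, and their counts stand beside 10.5% of all genes that fell and 8.04% that rose. In the unfolded protein and integrated stress response 7 of 23 fell. PHGDH, the first enzyme of serine synthesis, was at 590.3, 483 and 393 CPM without H89 and 218, 181 and 188 CPM with it (log2 change -1.32 ± 0.17 SE, adjusted p = 0.014), and SHMT2, CALR and PDIA4 fell by 0.84, 0.68 and 0.56. Of 14 cytosolic chaperones 1 fell, DNAJB1 (log2 change -0.38), and with trends removed it no longer passed (-0.16, adjusted p = 0.097). Among 24 interferon and antigen presentation genes 9 fell: HLA-B was at 19.7, 15.7 and 14.5 CPM without H89 and 6.36, 6.36 and 6.37 CPM with it (log2 change -1.38 ± 0.17 SE, adjusted p = 0.013), and PSMB9 and PSMB8 fell by 0.98 and 0.68 on the log2 scale; HLA genes share reads and their split is uncertain. Of 14 NF-kB, chemokine and inflammatory genes 3 fell and 1 rose. IL32 was at 334, 289.9 and 316 CPM without H89 and 151, 145 and 138 CPM with it (log2 change -1.12 ± 0.09 SE, adjusted p = 0.011), LCN2, lipocalin 2, at 41.5, 32.3 and 34.4 CPM without H89 and 14.6, 10.3 and 11.2 CPM with it (log2 change -1.58 ± 0.18 SE, adjusted p = 0.013), and SOCS3, a brake on cytokine signalling, fell by 0.86 (-0.52 with trends removed, adjusted p = 0.103), while TNFAIP2 rose by 0.70.

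The next counts stand beside 10.5% of all genes that fell and 8.04% that rose. Of 16 NRF2 targets and metallothioneins 5 fell and 4 rose. MT2A, a metallothionein, was at 111, 98.9 and 102 CPM without H89 and 59.1, 60.3 and 53.4 CPM with it (log2 change -0.85 ± 0.10 SE, adjusted p = 0.013), TALDO1 and AKR1C1 fell by 0.64 and 0.73, and GCLC, which limits glutathione synthesis, rose by 0.82 (0.14 with trends removed, adjusted p = 0.178). AKR1C1 has close relatives that may share its reads. Of 15 hypoxia genes 2 rose, BNIP3L (log2 change 1.13) and EGLN1 (0.76), and 2 fell, CA9 (-0.78) and EPO (-0.60), while with trends removed 1 of the list fell and none of these 4 passed, at 0.094, 0.26, -0.39 and -0.22 in log2 units (adjusted p = 0.607, 0.263, 0.108 and 0.156). Of 24 autophagy and lysosome genes 2 rose and 3 fell: CTSB, cathepsin B, was at 1729, 1595 and 1431 CPM without H89 and 1042, 1103 and 1001 CPM with it (log2 change -0.60 ± 0.10 SE, adjusted p = 0.018), HEXA and GLA fell by 0.42 and 0.34, and LAMP2 rose by 0.73 but was at -0.88 with trends removed (adjusted p = 0.110).

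Of the 7 hepatocyte-like markers 2 fell, APOA1 and SERPINA1, alpha-1-antitrypsin, which was at 14320, 12600 and 10610 CPM without H89 and 7871, 7510 and 7486 CPM with it (log2 change -0.71 ± 0.12 SE, adjusted p = 0.019). The median log2 change of the 7 was 0.13, and 0 of them rose, beside 10.5% of all genes that fell and 8.04% that rose. APOB did not pass but was higher in every treated library (415, 2983 and 4663 CPM without H89, 6947, 6517 and 6287 CPM with it). ALB did not pass either, at 2923, 17720 and 23150 CPM without H89 and 17910, 20060 and 19730 CPM with it. The only fibroblast marker tested, PDGFRB, fell by 0.80 on the log2 scale, with 39.6, 35.7 and 24.4 CPM without H89 and 20.5, 19.2 and 17.7 CPM with it. Of 6 blood and endothelial markers tested, CD14 fell, with 35.6, 29.1 and 22.4 CPM without H89 and 12.4, 13.5 and 11.9 CPM with it (log2 change -1.21 ± 0.19 SE, adjusted p = 0.018), and so did CD3D, with 1.34, 0.997 and 1.97 CPM without H89 and 0.439, 0.186 and 0.443 CPM with it (log2 change -1.99 ± 0.40 SE, adjusted p = 0.027).

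The same contrast in wild-type cells shares no library with the one in S434A cells, and the effects ran in like order (Spearman's rho 0.56 across genes, 0.66 with trends removed in both). In wild-type cells 23.0% of genes were called higher and 15.9% lower, and 46.7% rose and 34.6% fell at any fold. Of the 594 genes called higher in S434A cells 570 had the same sign in wild-type cells and 405 were called higher there too. Of the 261 called lower 252 had the same sign and 192 were called lower, while 1 was called higher. Among genes called in both S434A fits, 112 of 143 and 111 of 137 were called the same way in wild-type cells.

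A test of the difference itself, over all 12 libraries, passed at an adjusted p under 0.05 for 48.0% of genes. The test shares a spread over groups whose biological coefficients of variation ran from 0.0197 (untreated wild type) to 0.351 (untreated S434A). Its p-values can therefore be too small. The test passed for 130 of the 594 genes called higher, 63 with the larger effect in S434A cells and 67 with the smaller, and for 107 of the 261 called lower, 36 larger and 71 smaller. PLG, HAL, HPX, TUBA1A, IGFBP3 and PCK1 had no passing difference, with log2 differences (S434A minus wild type) of -0.47, 0.070, -0.0027, -0.44, -0.22 and -0.23 and standard errors of 0.22, 0.21, 0.21, 0.30, 0.22 and 0.15; a difference that does not pass does not show equal effects. The fall of TIE1 was larger in S434A cells (log2 change -1.82 against -0.54, difference -1.27, adjusted p = 0.010), but with trends removed the difference did not pass (-0.33, adjusted p = 0.377). Larger too were the falls of G6PC1 (log2 change -1.57 against -0.91, adjusted p = 0.023) and C1R (-1.39 against -0.51, adjusted p = 0.0015), whose differences of -0.66 and -0.87 were -0.81 and -0.49 with trends removed and passed there too. Smaller in S434A cells were the fall of HP (log2 change -2.02 against -3.64, adjusted p = 3.5e-05) and of GNMT (-1.91 against -3.00, adjusted p = 0.00035). The rises of CEMIP (log2 change 1.44 against 3.26, adjusted p = 6.9e-05) and CYP24A1 (1.47 against 2.89, adjusted p = 2.6e-05) were also smaller, and that of ZNF114 larger (2.22 against 1.30, adjusted p = 0.016); with trends removed the difference of ZNF114 did not pass (0.65, adjusted p = 0.072). THBS1 and ANGPTL4 fell in S434A cells and rose in wild-type cells (log2 changes 0.89 and 0.45 there), with differences of -1.51 and -1.29 (adjusted p = 1.6e-05 and 0.0012). For HP the untreated means were 889 CPM in S434A and 2411 CPM in wild-type cells, and the treated means 220 and 193 CPM. For CEMIP they were 43.2 and 12.9 CPM untreated and 117 and 123 CPM treated. For ZNF114 they were 2.55 and 3.44 CPM untreated and 11.9 and 8.43 CPM treated. The part of the untreated levels in these differences was not tested.

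Lists held different shares of genes with a passing difference, beside 48.0% of all genes. Of 55 ribosomal protein genes 51 had a passing difference, and the list median was -0.37 in S434A and -1.26 in wild-type cells. For respiratory chain subunits it was 28 of 33, with medians of -0.42 and -1.25, and for proteasome subunits 22 of 25, with -0.11 and -0.87. All 13 mitochondrially encoded mRNAs had one, with medians of 0.36 and 1.99. Of the 20 plasma carrier genes 11 had one, a share near that of all genes, and the medians were -0.71 and -0.94. These medians stand beside 0.013 and 0.20 over all genes.

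**Figure D4:**
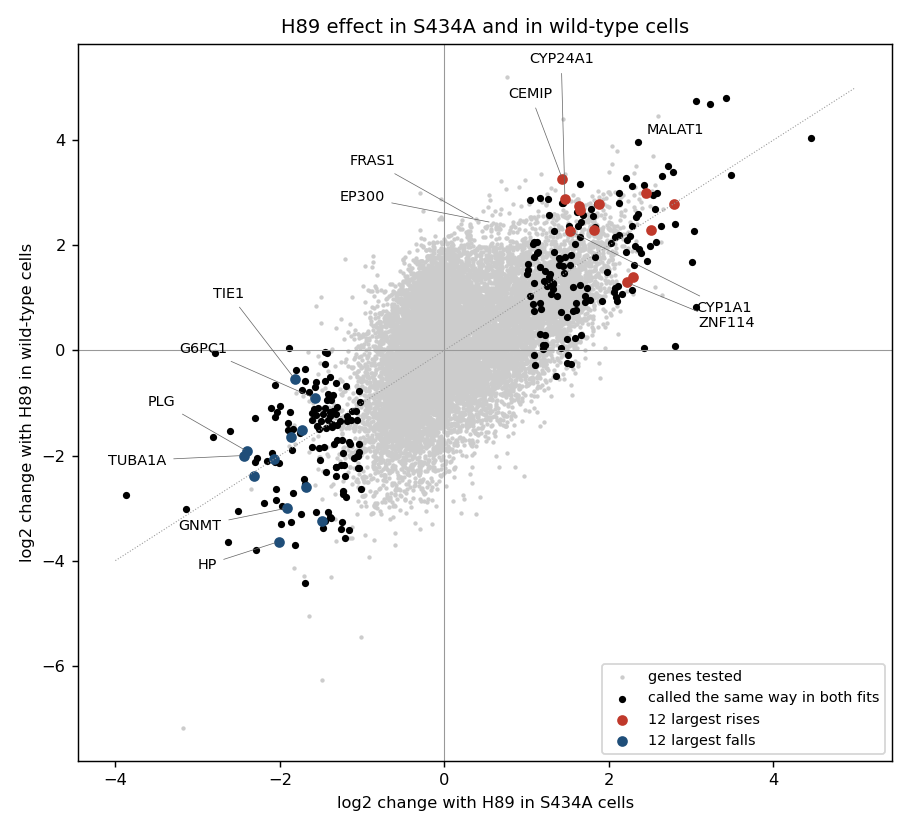
Log2 change with H89 in S434A cells (x axis) against that in wild-type cells (y axis) for each gene tested (grey), genes called the same way with and without trends removed in S434A cells (black), and the 12 largest rises (red) and falls (blue); the dotted line marks equal effects. CEMIP and CYP24A1 lie above the line at 3.26 and 2.89 in wild-type cells, and TIE1 lies above it at -0.54, where its fall was larger in S434A cells; with trends removed, which is not drawn, that difference was -0.33.

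**Figure D5:**
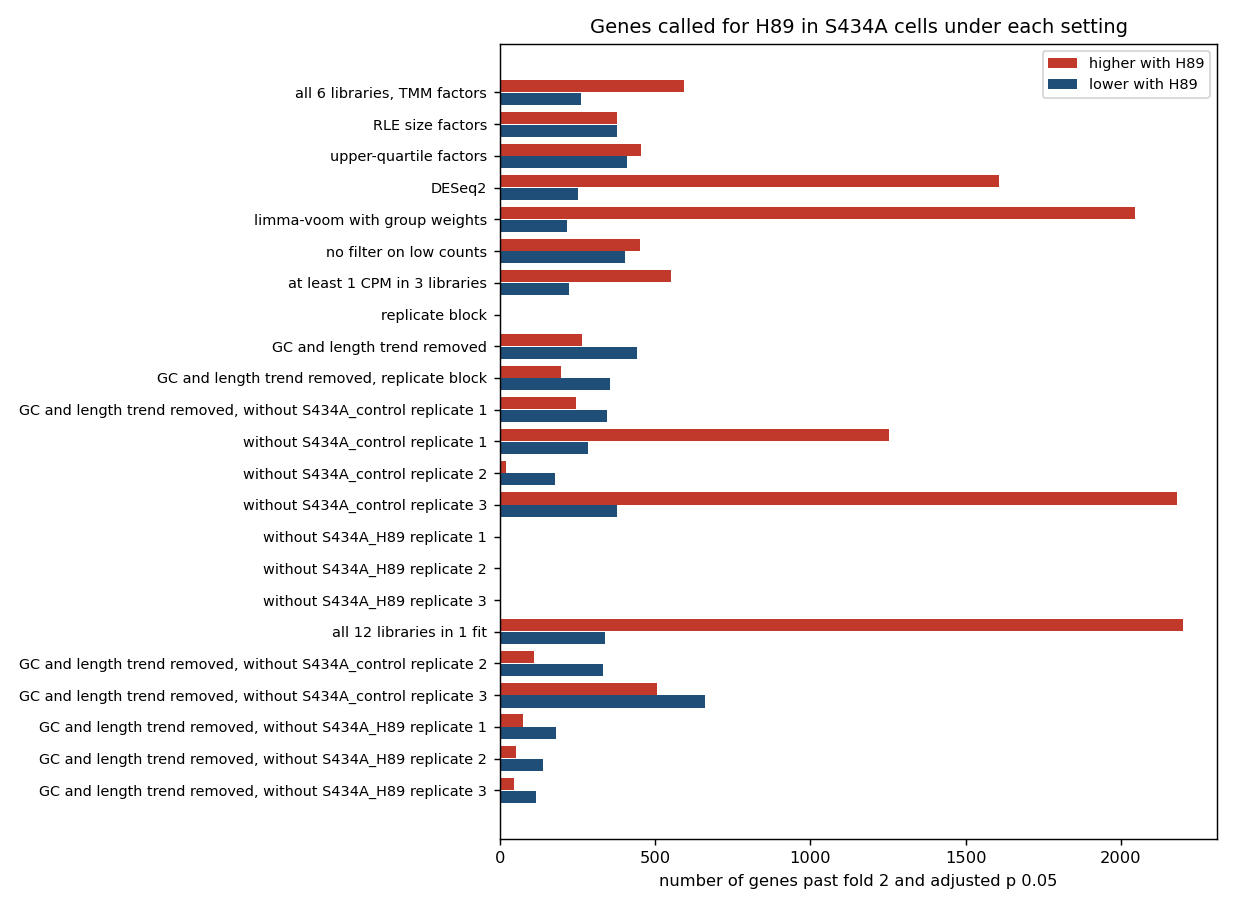
Number of genes past a fold of 2 and an adjusted p of 0.05 (x axis) that were higher (red) or lower (blue) with H89 in S434A cells, under each setting (y axis). Higher calls run from 0 without a treated library or with a replicate block to 2201 with all 12 libraries in 1 fit, and lower calls from 0 to 662.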

How the data were processed

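Messenger RNA was measured in 12 libraries, of which the 6 S434A libraries were compared. The deposited table holds whole-number counts, made per gene from read pairs over exons by featureCounts 2.0.1 on an hg19 annotation, per the file headers. No strand or multimapping option appears in the headers. The submitters' processing notes name Bowtie 0.12.2 and hg19. The labels used here name no library kit, strandedness, trimming or batch. The labels describe RNA extraction by a column kit and also by phenol and chloroform.

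The counts were used as deposited. Low-count genes were removed with filterByExpr by group (minimum count 10), and TMM factors were set, over all 12 libraries, which left 14435 of 62475 identifiers. The 6 libraries were then fitted without a block by edgeR 4.0.16 (R 4.3.3) with robust quasi-likelihood F tests and Benjamini-Hochberg adjustment over all genes tested. The thresholds, a fold over 2 and an adjusted p under 0.05, are those of the series design. The standard error is the size of the log2 change divided by the square root of F. The 6 wild-type libraries were fitted likewise, and the difference of effects was tested over 12 libraries. The second fit adds an offset per gene and library, from splines (5 degrees of freedom) on GC content and log2 gene length with their product, at a prior count of 2, set so that the median gene is unchanged. GC content came from the longest GENCODE 29 transcript by identifier, for 14280 genes tested; gene lengths and positions are those of the deposited table.

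The comparison and the 41 gene lists were chosen with earlier results of these data known. Named genes are HDAC1, then the 12 largest rises and falls by the smaller log2 change of the 2 fits, among protein-coding genes called in both, with a group mean of 5 CPM or more and no overlap of libraries. From each list came at most 4 members that passed, by smallest p, or 2 by highest mean where none did, and for the difference of effects the 5 smallest p in each direction. A few genes that this rule selects are not reported here, though the list counts include them. Alternatives were other scaling factors (RLE, upper-quartile), other tools (DESeq2 1.42.0, and limma-voom from limma 3.58.1 with group weights), other filters, a replicate block, trend removal, all 12 libraries in 1 fit and leaving out libraries. Trend removal with untreated replicates 2 or 3 or a treated library left out was added after seeing the data. The fits were also run on simulated libraries. These held no GC or length trends, so they cannot show how either fit performs on libraries with such trends.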

Additional observations from a re-analysis of the deposited data

Results flagged for a closer look

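The H89 effect differed between S434A and wild-type cells by edgeR's interaction test for 10 genes named by the smallest p (adjusted p = 7.46e-06 for each). That test shares a spread over groups of unlike spread, so these p-values can be too small. Values are differences of log2 effects, S434A minus wild type. A weaker fall in S434A cells was seen for 5 genes: RPS20 (1.37, from -0.59 in S434A and -1.96 in wild-type cells), RPL27A (1.42, -0.59 and -2.00), the dynein light chain DYNLL1 (1.44, -0.35 and -1.79), APOA2 of high-density lipoprotein (1.13, -0.26 and -1.40) and SAP18, a subunit of an HDAC1 corepressor complex (1.45, -0.17 and -1.62). In S434A cells SAP18 did not pass (adjusted p = 0.157), but with GC and length trends removed it did, at -0.83 (adjusted p = 0.029). With GC and length trends removed the S434A effects of APOA2 and DYNLL1 no longer passed, at 0.14 and -0.10 (adjusted p = 0.185 and 0.392).

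A weaker rise in S434A cells was seen for 5 genes: EP300 (-1.84, 0.59 and 2.43), CHD8 (-1.30, 0.69 and 2.00), the ubiquitin ligase HECTD4 (-1.80, 0.30 and 2.10), spectrin SPTBN1 (-1.19, 0.11 and 1.30) and the matrix protein FRAS1 (-2.10, 0.39 and 2.49). HECTD4, SPTBN1 and FRAS1 did not pass in S434A cells (adjusted p = 0.083, 0.333 and 0.076), and the S434A effect of SPTBN1 turned to -0.17 with trends removed. With GC and length trends removed the differences were 0.62, 1.61, 1.31, 0.70 and 0.65 for the first 5 genes and -1.10, -0.47, -0.76, -0.33 and -1.27 for these 5. All 10 kept the sign of the difference when any 1 library was left out. In all 10 the untreated means of the genotypes lay further apart than the treated means. For RPS20 they were 1079 CPM in S434A and 2617 CPM in wild-type cells untreated, and 716 and 672 CPM treated. For EP300 they were 41.3 and 12.9 CPM untreated and 62.0 and 69.5 CPM treated. The untreated wild-type libraries fell in level with gene length (Spearman's rho -0.42 to -0.43 across genes) and the untreated S434A libraries less so (-0.08 to -0.19). With GC content rho was 0.81, 0.71 and 0.13 in untreated S434A replicates 1, 2 and 3 and -0.065 to -0.10 in the untreated wild-type libraries. The part of either trend in the differences was not tested.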

How the results depend on the processing

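Calls in S434A cells kept their direction more than their number. Of the 855 genes called, 0 were called the other way under any setting, and 798 had the same sign with GC and length trends removed. Higher calls numbered 594 as reported, 377 with RLE factors, 1609 with DESeq2, 2045 with limma-voom, 2201 with all 12 libraries in 1 fit, 264 with trends removed and 198 with trends removed and a replicate block. Lower calls numbered 261 as reported, 410 with upper-quartile factors (454 higher), 403 with no filter (452 higher) and 440 with trends removed. Leaving out 1 library gave 0 to 2182 higher and 0 to 378 lower calls, and with trends removed 246, 110 and 506 higher and 345, 332 and 662 lower without untreated replicates 1, 2 and 3, and 74, 51 and 45 higher and 180, 138 and 117 lower without treated replicates 1, 2 and 3. The difference between genotypes was called past both thresholds for 3491 genes, 1855 with trends removed, 1851 with the block as well and 1916 with trends removed and without untreated replicate 1. The cause of these changes was not tested. The median of all genes was 0.013 with TMM, -0.082 with RLE and -0.11 with upper-quartile factors.

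Replicate numbers are shared between the groups, but same-numbered libraries deviated together by correlations of 0.309, 0.126 and 0.0481, and untreated replicate 3 and treated replicates 2 and 3 correlated best with a library of another number, so the numbers were not taken to pair the samples. With the replicate number as a block edgeR called 0 genes higher and 0 lower (smallest adjusted p 0.0727), with 5984 at an unadjusted p under 0.05; no other tool was run with the block.

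Of 169 values of named genes, 132 kept their direction and side of the threshold with trends removed and 33 no longer passed; 156 no longer passed with the block or without any 1 treated library, 85 without untreated replicate 2, 10 with RLE and 7 with upper-quartile factors. Among those of the 169 values that passed as reported or under the setting, signs turned in the following cases. With trends removed, and with a block added, PRKAR2A was at -0.045 and -0.037, RCOR3 at -0.49 and -0.46, CDH2 at -0.032 and -0.025 and LAMP2 at -0.88 and -0.74. With trends removed and 1 library left out, the turned values were -0.13, -0.069, -0.060, -0.050 and -0.041 for PRKAR2A, -0.095, -0.046, -0.028 and -0.010 for ELOVL5, -0.089 and -0.026 for CYP51A1, -0.80, -0.64, -0.55, -0.52, -0.51 and -0.036 for RCOR3, -0.14, -0.094, -0.035 and -0.021 for CDH2, -1.13, -1.05, -0.90, -0.88, -0.86 and -0.32 for LAMP2, -0.052 and -0.0071 for SNHG14 and 0.046 for HDAC11. MT-CO1 ran from -0.31 to 0.39 when 1 library was left out, the highest without untreated replicate 1, and was at 0.40 with trends removed as well. Of genes that did not pass, MT-CO2 also turned, from -0.020 to 0.21 without untreated replicate 1. Depth limits genes at few counts, such as CNN1 and CD3D.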
